A study of Mus musculus with 9 samples.

Results

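The genes described here act in G2 phase and mitosis, and were followed in mouse hearts after oxaliplatin. They were chosen by name: 60 symbols were listed for their part in entering, running or leaving mitosis, and 59 were in the deposited table, out of 13795 genes in all (Lmnb1 is not analysed here). The list was made with earlier results of these data known, so the counts below are a description and not an independent test of it. All 59 had a mean of at least 10 normalized counts over the samples and were tested. The samples were labelled as heart tissue of C57BL/6 mice: 5 from animals given oxaliplatin at 10 mg/kg and 4 from animals given vehicle, each collected after 8 weeks. Every sample had passed the study's RNA integrity threshold of 8. The sources used here do not give age, sex, the number of injections or the part of the heart taken. No label ties each sample to an animal of its own, so a p-value reflects only how these samples varied, which may be technical. The word heart, where it is counted below, stands for a sample.

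Oxaliplatin is a platinum drug that crosslinks DNA. In a dividing cell, CDK1 bound to B-type cyclins starts mitosis, the Aurora and Polo-like kinases build and align the spindle, and the anaphase-promoting complex ends mitosis by marking cyclin B and securin for destruction. The genes for these proteins are transcribed together late in the cell cycle, under B-Myb, FoxM1 and the MuvB core. In cells at rest they are repressed by the DREAM complex and, after DNA damage, by p53 through p21. Adult cardiomyocytes have for the most part left the cell cycle, so the transcripts are scarce in a healthy adult heart. In a sample of whole tissue, fewer cells of a type and less RNA per cell cannot be told apart, and the same holds for more cells and more RNA per cell.

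The deposited values were read counts normalized between samples by the authors, with sums of 29.4 to 36.9 M per sample. The step between low values put the depth at an estimated 28.5 to 36.2 M reads. At that step 73.1 to 75.9% of values of 1 to 1000 reads came within 0.02 of a whole read. Correlations between samples over all genes lay between 0.921 and 0.982. The 12 cardiomyocyte markers were all present, with summed levels of 1309000 to 1834000 normalized counts in oxaliplatin hearts and 1655000 to 2032000 in vehicle hearts. Markers of atrial muscle differed widely between samples of both groups. They summed to 31910 to 868900 in oxaliplatin hearts and 17330 to 400000 in vehicle hearts, and were high in oxaliplatin samples 2, 3 and 4 and in vehicle sample 1.

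Most G2 and mitosis genes were higher in oxaliplatin hearts. Of the 59, 55 rose and 0 fell at an adjusted p under 0.05 (limma on log2 normalized counts + 1, adjusted over 13788 genes), while of all genes 9.23% rose and 5.03% fell. The same 55 and no others had an unadjusted p under 0.05. Those that passed rose by 0.77 to 4.45 on the log2 scale, and 47 of them rose at least 4-fold, which 1.18% of all genes did. The median log2 fold change over the 59 was 2.99, against -0.02 over all genes tested. In 50 members every oxaliplatin sample was above every vehicle sample, which held for 8.99% of all genes. No member had every oxaliplatin sample below every vehicle sample, as 5.93% of all genes did. The 4 that did not pass were Cenpa, Cenpf, Ckap5 and Ncapd2.

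How the table was built bears on that count, and on the median, the fold changes and the lack of overlap given with it. Every gene in it reached 40.6 normalized counts in at least 1 sample, and 42 of the 59 members stayed below that level in all vehicle samples. Among them is Cdk1, which missed it narrowly in vehicle sample 1. Those 42 were in the table through their oxaliplatin values alone and had to differ; all 42 rose, as did 31.8% of the 597 genes of that kind. The other 17 members reached the level in a vehicle sample too. Of these 17, 13 rose (76.5%), against 8.2% of the 13191 such genes. The log2 fold changes of these 17 members ran from -0.31 (Cenpa) to 3.46 (Prc1), with Gas2l3 at their median, 1.19. The higher median over the 59, 2.99, includes the 42 that had to differ. The counts of large rises and of members without overlap include them too, and were not recomputed over the 17.

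The calls also depended on the model. Under voom, values are weighted by the variance predicted at their estimated read counts. With it 25 members passed as higher and 0 as lower, while 7.33% of all genes rose. With voom 54 members had an unadjusted p under 0.05 and 57 had a positive log2 fold change, as in the limma fit. The 30 that no longer passed had adjusted p-values up to 0.272. Members of low vehicle level were both kept and lost with voom. The vehicle mean of kept members was as low as 1.97 normalized counts, and that of lost members as high as 47.4. Of the 17 members that reached 40.6 in a vehicle sample, 9 passed with voom, where 6.93% of such genes did. After quantile normalization of all samples 51 members rose, with 8.35% of all genes, and Cdc25c, Cdca2, Cenpe and Ttk no longer passed.

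**Figure D1:**
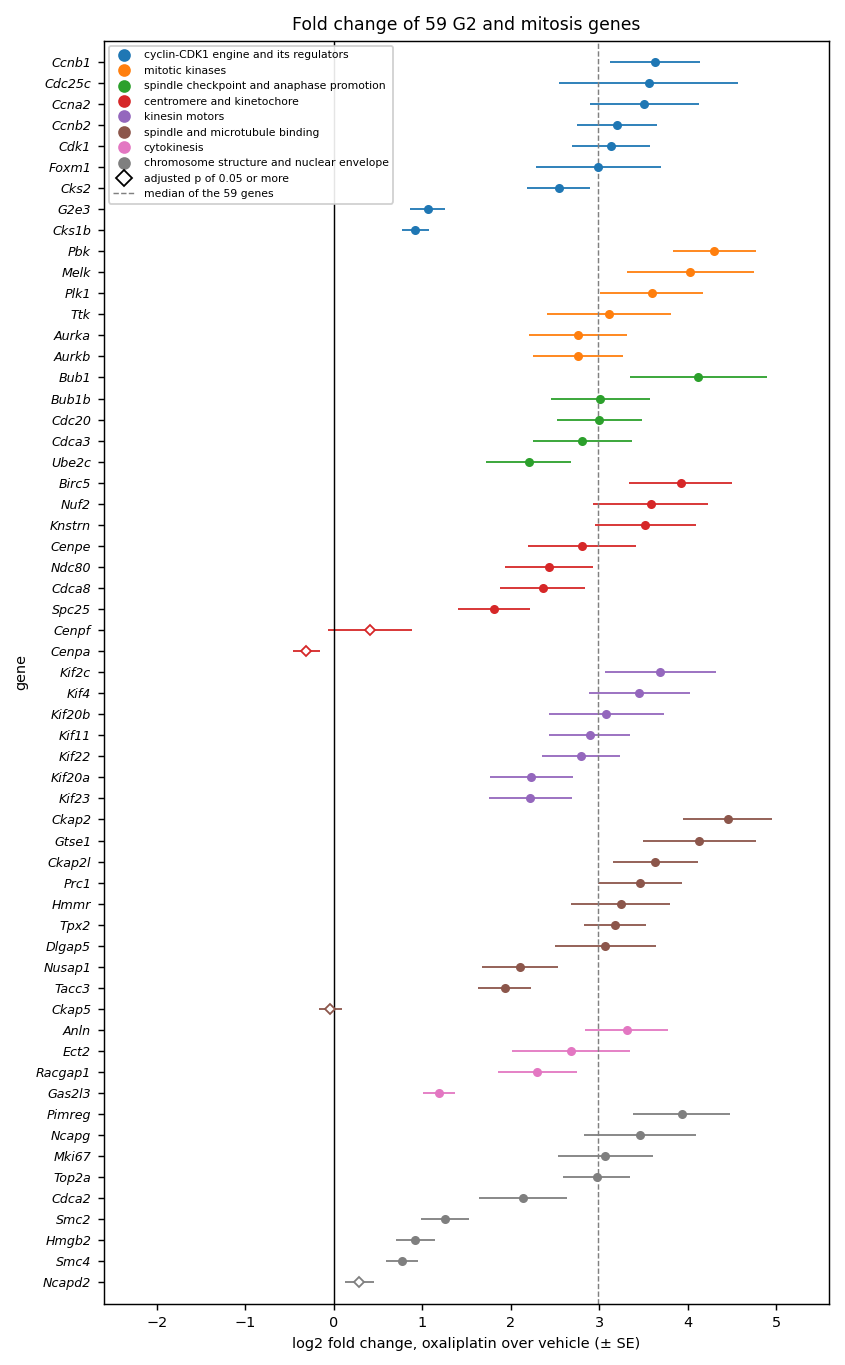
Log2 fold change (oxaliplatin over vehicle) of each of the 59 G2 and mitosis genes, grouped by role, with bars of 1 standard error, open symbols for genes that did not pass and a dashed line at the median. 55 lie above 0 and passed, at 0.77 to 4.45, and Cenpa, Cenpf, Ckap5 and Ncapd2 lie near 0.

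Promoter sequence is shown because these genes moved together and share promoter elements. The cell cycle genes homology region, written TTTGAA or TTTAAA, is known as a binding site of the MuvB core, and the CCAAT box as a binding site of NF-Y. RefSeq promoters (GRCm38.p6) matched 48 of the 59 members, with 51 start sites, each searched on both strands from 250 bases before to 50 bases after the start. TTTGAA occurred in 37 of the 51 (72.5%), against 12.2% of the 12914 promoters of tested genes. Within the stretch from 100 bases before to 50 bases after the start it occurred in 66.7%, against 4.7%. TTTAAA, which reads the same on both strands, occurred in 23.5%, against 9.35%, and either form in 82.4%, against 19.8%. CCAAT occurred in 78.4%, against 37.7%. Each motif was counted on its own, although a CCAAT box can share its end base with either of the others. A match in sequence is not a bound site.

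Below are 150 bases of 5 promoters whose genes rose and 4 whose genes did not pass, from 120 bases before to 30 bases after the start, 5′ to 3′ on the gene's strand. Capitals mark the 3 motifs, also as their reverse complement where a motif lies on the other strand.
Cdk1: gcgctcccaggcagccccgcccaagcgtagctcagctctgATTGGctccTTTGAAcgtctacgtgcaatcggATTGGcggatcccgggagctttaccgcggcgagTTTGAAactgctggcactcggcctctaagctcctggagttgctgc
Ccnb1: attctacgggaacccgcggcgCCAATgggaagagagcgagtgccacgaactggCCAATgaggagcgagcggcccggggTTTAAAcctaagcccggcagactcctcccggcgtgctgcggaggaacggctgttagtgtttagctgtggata
Plk1: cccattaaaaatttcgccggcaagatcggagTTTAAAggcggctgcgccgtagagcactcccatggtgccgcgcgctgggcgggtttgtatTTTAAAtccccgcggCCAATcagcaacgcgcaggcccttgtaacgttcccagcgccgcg
Top2a: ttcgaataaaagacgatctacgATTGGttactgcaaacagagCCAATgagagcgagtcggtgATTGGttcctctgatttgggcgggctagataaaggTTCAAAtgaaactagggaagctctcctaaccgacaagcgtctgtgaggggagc
Mki67: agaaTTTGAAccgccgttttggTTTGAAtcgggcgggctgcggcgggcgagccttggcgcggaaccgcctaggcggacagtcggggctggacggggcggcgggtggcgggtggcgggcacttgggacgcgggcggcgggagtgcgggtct
Cenpa: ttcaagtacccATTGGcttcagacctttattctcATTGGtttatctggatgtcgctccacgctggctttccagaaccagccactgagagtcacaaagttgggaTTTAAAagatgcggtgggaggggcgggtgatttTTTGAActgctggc
Ckap5: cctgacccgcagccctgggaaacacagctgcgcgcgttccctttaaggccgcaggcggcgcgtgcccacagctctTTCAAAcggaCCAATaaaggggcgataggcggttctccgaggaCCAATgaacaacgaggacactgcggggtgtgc
Cenpf: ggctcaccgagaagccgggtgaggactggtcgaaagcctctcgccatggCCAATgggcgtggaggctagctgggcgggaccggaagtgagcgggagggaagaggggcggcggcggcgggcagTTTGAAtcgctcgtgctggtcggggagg
Ncapd2: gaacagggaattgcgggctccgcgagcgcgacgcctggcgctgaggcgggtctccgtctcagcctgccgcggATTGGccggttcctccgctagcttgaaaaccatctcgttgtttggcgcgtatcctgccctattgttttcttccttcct

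The stretches are those of Cdk1 (chr10:69352883-69353032, minus strand), Ccnb1 (chr13:100786457-100786606, minus), Plk1 (chr7:122159315-122159464, plus), Top2a (chr11:99024160-99024309, minus) and Mki67 (chr7:135716350-135716499, minus). Those of the genes that did not pass are Cenpa (chr5:30666766-30666915, plus), Ckap5 (chr2:91526642-91526791, plus), Cenpf (chr1:189688057-189688206, minus) and Ncapd2 (chr6:125191557-125191706, minus). All 5 promoters of genes that rose hold TTTGAA or TTTAAA in the printed stretch. So do Cenpa, Ckap5 and Cenpf. In Ncapd2 a TTTGAA starts at position -123, just outside it. The presence of these letters therefore did not separate the 5 genes from the 4. Cdk1 holds TTTGAA at positions -71 and -15 with CCAAT boxes at -80 and -48, and Top2a holds a copy at -23 downstream of CCAAT boxes at -98, -78 and -58.

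The cyclin and CDK1 group, which drives entry into mitosis, rose in all 9 of its members, with log2 fold changes of 0.92 to 3.63 and a median of 3.13. With voom 5 of the 9 passed. Only Cks1b and G2e3 (log2 fold change 1.06) of the 9 reached 40.6 normalized counts in a vehicle sample. Cdk1, the kinase itself, had 246, 84.5, 419.6, 306 and 439 normalized counts in oxaliplatin hearts, against 40.6, 22.3, 20.4 and 36.3 in vehicle hearts. Every oxaliplatin heart was above every vehicle heart, although the second oxaliplatin sample was at a level far under the other four. The means were 299 ± 144 in oxaliplatin hearts (SD, n = 5) and 29.9 ± 10.1 in vehicle hearts (SD, n = 4), and the log2 fold change was 3.13 with a standard error of 0.44 (adjusted p = 0.0017). Ccnb1, the cyclin B1 partner of CDK1, had 160.5, 54.6, 357, 273 and 383 in oxaliplatin hearts, against 10.8, 12.3, 21.5 and 19.2 in vehicle hearts. The order of the oxaliplatin samples was close to that of Cdk1, and the groups did not overlap (log2 fold change 3.63 ± 0.51, SE, adjusted p = 0.0017, or 0.0942 with voom). Ccnb2 rose by 3.20 on the log2 scale (adjusted p with voom 0.0644), and Ccna2, the cyclin that acts in S phase and G2, by 3.51 (0.0634 with voom).

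Cks1b and Cks2 encode small subunits that bind cyclin-dependent kinases. Cks1b had 290.4, 245, 330.2, 339.7 and 363 normalized counts in oxaliplatin hearts, against 182, 165, 142 and 168 in vehicle hearts. It was well expressed in both groups, which were apart, and the difference was the smallest of this role (0.92 ± 0.15, adjusted p = 0.00243), while Cks2 rose by 2.54. Foxm1, a transcription factor of the late cell cycle genes, had 31.1, 35.2, 85.8, 39.8 and 61.9 normalized counts in oxaliplatin hearts, against 0, 11.2, 12.9 and 7.06 in vehicle hearts. All 5 oxaliplatin values were above the 4 vehicle values, at a low level (2.99 ± 0.71, adjusted p = 0.0148). With a score of erythroid markers as a covariate its adjusted p was 0.0536. Cdc25c, the phosphatase that activates CDK1, had 1.86 to 72.9 in oxaliplatin hearts and 0 to 4.78 in vehicle hearts, and the groups overlapped. Its difference of 3.56 had the largest standard error of any member, 1.01 (adjusted p = 0.0337). The adjusted p was between 0.0619 and 0.0934 when any of oxaliplatin samples 1, 3, 4 and 5 or vehicle samples 2 and 3 was left out, and 0.272 with voom.

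**Figure D2:**
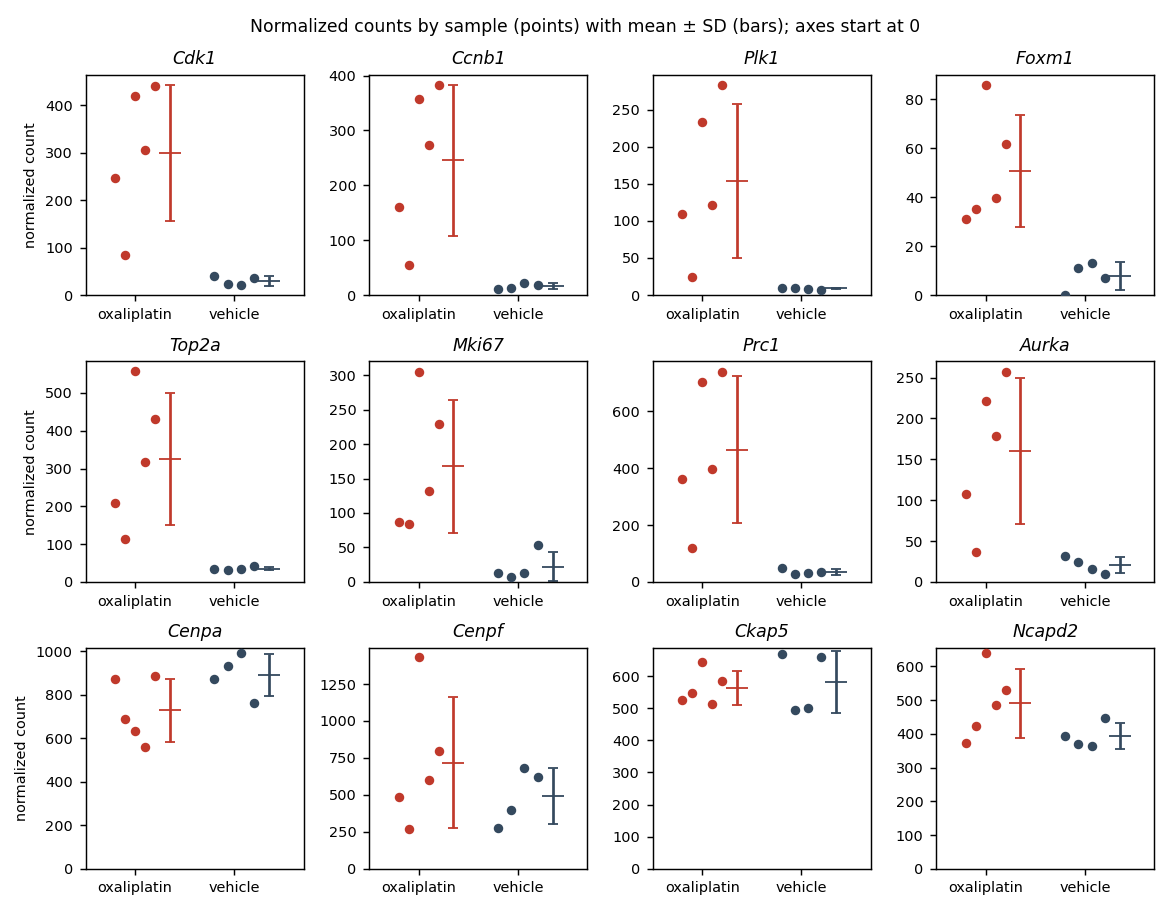
Normalized counts (vertical axes, from 0) of 12 G2 and mitosis genes in each heart (points), 5 oxaliplatin left of 4 vehicle, with bars for mean ± SD. In the upper 8 genes, Cdk1, Top2a and Mki67 among them, every oxaliplatin point is above every vehicle point, while Cenpa, Cenpf, Ckap5 and Ncapd2 overlap.

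All 6 mitotic kinases rose, by 2.76 to 4.30, and in all 6 the groups did not overlap. With voom only Pbk of the 6 passed. All 6 stayed below 40.6 normalized counts in every vehicle sample and so were in the table through their oxaliplatin values alone. Of the 597 tested genes of that kind 31.8% rose. Plk1, Polo-like kinase 1, acts in centrosome maturation, chromosome alignment and cytokinesis. It had 109, 23.8, 233, 122 and 283 normalized counts in oxaliplatin hearts, against 9.56, 10.1, 8.6 and 7.06 in vehicle hearts. Vehicle hearts were nearly uniform, and oxaliplatin hearts ranged over an order of magnitude (3.59 ± 0.58, adjusted p = 0.00267, or 0.176 with voom). Aurka, which acts at spindle poles, had 108, 36.1, 221, 179 and 257 in oxaliplatin hearts, against 32.3, 24.6, 16.1 and 9.08 in vehicle hearts. The lowest oxaliplatin heart was only slightly above the highest vehicle heart (2.76 ± 0.55, adjusted p = 0.00791, or 0.105 with voom). Aurkb, the kinase of the chromosomal passenger complex, had 98, 37.9, 261, 124 and 272 in oxaliplatin hearts, against 22.7, 22.3, 11.8 and 17.1 in vehicle hearts (2.76 ± 0.51, adjusted p = 0.0053, or 0.109 with voom).

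The largest differences among the kinases were in Pbk and Melk, which are expressed in many proliferating cells. Pbk had 81.3, 52, 224, 141 and 178 normalized counts in oxaliplatin hearts, against 7.17, 2.23, 7.53 and 5.04 in vehicle hearts. Its difference was 4.30 ± 0.47, with the lowest adjusted p of any member, 4.61e-04. Melk had 19.1, 16.7, 87.6, 44.7 and 75.3 in oxaliplatin hearts, against 1.2, 2.23, 4.3 and 0 in vehicle hearts, where it was barely present (4.03 ± 0.72, adjusted p = 0.00367, or 0.0512 with voom). Ttk, the checkpoint kinase Mps1, rose by 3.11, with an adjusted p of 0.0109, or 0.0824 after quantile normalization and 0.0648 with voom.

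The 5 genes of the spindle checkpoint and of the exit from mitosis rose by 2.20 to 4.12, and 2 of them, Bub1 and Bub1b, passed with voom. Ube2c alone of these 5 reached 40.6 normalized counts in a vehicle sample. Bub1, a checkpoint kinase at the kinetochore, had 21.5, 17.6, 79.7, 36.6 and 67.3 normalized counts in oxaliplatin hearts, against 3.59, 0, 4.3 and 0 in vehicle hearts. It was the largest difference of this role (4.12 ± 0.77, adjusted p = 0.0044). Ube2c, the ubiquitin-conjugating enzyme of the anaphase-promoting complex, had 195, 64.3, 335, 253 and 406 in oxaliplatin hearts, against 52.6, 38, 32.3 and 66.6 in vehicle hearts. The groups overlapped, since oxaliplatin sample 2 was just under vehicle sample 4 (2.20 ± 0.48, adjusted p = 0.0131, or 0.0877 with voom). Cdca3, a trigger of mitotic entry, had 134, 27.3, 192, 149 and 215 in oxaliplatin hearts, against 28.7, 8.94, 20.4 and 12.1 in vehicle hearts. Here too only oxaliplatin sample 2 reached down into the vehicle range (2.81 ± 0.56, adjusted p = 0.00778, or 0.126 with voom). Cdc20, the activator of the complex in anaphase, rose by 3.0 (adjusted p with voom 0.0576), and Bub1b by 3.01.

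A list of 16 further genes held 14 core subunits of the anaphase-promoting complex, its other coactivator Fzr1 and the ubiquitin-conjugating enzyme Ube2s. Of these 16, 0 rose and 0 fell by limma or by voom, with 1 unadjusted p under 0.05 by limma and a median log2 fold change of 0.02. Anapc13, with the smallest p of the list, averaged 2410.0 ± 426 in oxaliplatin hearts and 3101 ± 419 in vehicle hearts (-0.37 ± 0.14, adjusted p = 0.105). The adjusted p of Anapc13 was between 0.031 and 0.265 when 1 sample was left out. Anapc11 averaged 3615 ± 192 in oxaliplatin hearts and 4175 ± 592 in vehicle hearts (-0.20 ± 0.12, adjusted p = 0.286).

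Of the 9 genes of the centromere and kinetochore, 7 rose, with log2 fold changes up to 3.92. Those 7 were Birc5, Nuf2, Knstrn, Cenpe, Ndc80, Cdca8 and Spc25, and none of them overlapped between groups. Of the 7 only Cdca8 reached 40.6 normalized counts in a vehicle sample. With voom only Ndc80 passed, and the adjusted p-values of Birc5, Nuf2, Knstrn, Cenpe, Cdca8 and Spc25 were 0.0523, 0.111, 0.122, 0.162, 0.0923 and 0.091. Birc5 (survivin) and Cdca8 (borealin) are subunits of the chromosomal passenger complex, together with Aurkb. Birc5 rose by 3.92, and ranged over 52.8 to 254 normalized counts in oxaliplatin hearts and 2.39 to 23.2 in vehicle hearts. Ndc80, Nuf2 and Spc25 encode subunits of the microtubule-binding NDC80 complex of the kinetochore. They rose by 2.43, 3.58 and 1.81, and their vehicle ranges were 5.59 to 22.6, 1.12 to 9.68 and 25.1 to 32.3 normalized counts. Cenpe, a kinetochore motor, rose by 2.80 (adjusted p = 0.00931, or 0.0593 after quantile normalization and 0.162 with voom). Knstrn rose by 3.52 and Cdca8 by 2.36.

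The remaining pair of this role did not pass. Cenpa, the histone H3 variant that marks centromeres, had 871, 689.6, 635, 560.0 and 885 normalized counts in oxaliplatin hearts, against 872, 933, 992 and 762 in vehicle hearts. It was abundant in every heart, and the mean of 728 ± 145 in oxaliplatin hearts was below the mean of 889.8 ± 97.9 in vehicle hearts by less than the test could separate (-0.31 ± 0.15, adjusted p = 0.196). With each sample weighted by its fit the difference was -0.42 with an adjusted p of 0.0289, the only setting in which a member fell. Cenpf, a large kinetochore protein of G2, had 483, 269, 1434, 603 and 798 in oxaliplatin hearts, against 275, 397, 681 and 618 in vehicle hearts. Both groups were widely spread and overlapped (0.41 ± 0.47, adjusted p = 0.613).

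The 7 kinesin motors all rose, by 2.22 to 3.69, with no overlap between groups in any, and 3 of them, Kif11, Kif20b and Kif4, passed with voom. All but Kif20a stayed below 40.6 normalized counts in every vehicle sample. Kif20a, a motor of cytokinesis, had 178, 60.9, 416, 210.1 and 367 normalized counts in oxaliplatin hearts, against 42.4, 34.7, 46.8 and 47.4 in vehicle hearts (2.23 ± 0.47, adjusted p = 0.0115, or 0.0988 with voom). Kif22, a chromokinesin that pushes chromosome arms, had 168, 56.4, 321, 215 and 327 in oxaliplatin hearts, against 22.7, 29, 24.7 and 27.2 in vehicle hearts (2.79 ± 0.44, adjusted p = 0.00243, or 0.0682 with voom). In both genes the vehicle hearts lay close together and oxaliplatin sample 2 was the nearest to them. Kif2c, a microtubule depolymerase at the centromere, rose most of the 7, by 3.69 (adjusted p = 0.104 with voom). Kif11, which pushes spindle poles apart, rose by 2.89, and Kif4, Kif20b and Kif23 rose by 3.45, 3.08 and 2.22 (Kif23 had an adjusted p of 0.106 with voom).

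Among 10 genes of the spindle and its microtubules, 9 rose, by 1.93 to 4.45, and 5 passed with voom. Apart from Prc1 and Tacc3, those that rose stayed below 40.6 normalized counts in every vehicle sample. Prc1, which bundles the microtubules of the central spindle, had 361, 119, 703, 397 and 739.7 normalized counts in oxaliplatin hearts, against 48.9, 26.8, 31 and 34.3 in vehicle hearts (3.46 ± 0.48, adjusted p = 0.0019, or 0.0552 with voom). Ckap2, a spindle microtubule protein, had 183, 81, 407, 230.0 and 379 in oxaliplatin hearts, against 21.5, 4.47, 7.53 and 9.08 in vehicle hearts. That was the largest log2 fold change of the 59 in the limma fit (4.45 ± 0.50, adjusted p = 8.39e-04). With voom Bub1 was higher, at 4.69 against 4.55, and by the ratio of group means Melk (25.2) and Pbk (24.6) exceeded Ckap2 (24.1). Gtse1, a microtubule-associated protein of G2, had 117, 62.5, 247, 139.8 and 293 in oxaliplatin hearts, against 1.2, 12.3, 7.53 and 21.2 in vehicle hearts (4.13 ± 0.64, adjusted p = 0.00249). Tpx2, the activator of Aurora A on the spindle, rose by 3.18, and Tacc3, an Aurora A substrate on spindle microtubules, by 1.93. Ckap2l, Hmmr and Nusap1 rose by 3.63, 3.24 and 2.10 (adjusted p with voom 0.0813, 0.0909 and 0.0784), and Dlgap5 by 3.07.

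Ckap5, a microtubule polymerase that cells also use outside mitosis, was the spindle gene that did not pass. It had 525, 547, 643, 513 and 586 normalized counts in oxaliplatin hearts, against 670.5, 495, 501 and 659 in vehicle hearts, and the groups overlapped fully. The difference was -0.04 ± 0.13 (adjusted p = 0.883), and its sign changed with several settings, at 0.10 when samples were scaled to equal totals.

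The 4 cytokinesis genes rose by 1.19 to 3.31, and Gas2l3 and Anln passed with voom. Gas2l3 was the only gene of the 4 to reach 40.6 normalized counts in a vehicle sample. Gas2l3, which links actin and microtubules, had 166, 178, 241, 229 and 229.6 normalized counts in oxaliplatin hearts, against 86, 97.2, 74.2 and 104 in vehicle hearts. The values were tight in both groups and did not overlap (1.19 ± 0.18, adjusted p = 0.0014). Racgap1, a subunit of centralspindlin, had 119, 64.3, 357, 183 and 359.6 in oxaliplatin hearts, against 29.9, 36.9, 36.6 and 39.3 in vehicle hearts (2.30 ± 0.45, adjusted p = 0.00723, or 0.0853 with voom). Anln, anillin of the contractile ring, rose by 3.31. Ect2, the exchange factor that activates RhoA at the cleavage furrow, rose by 2.68 (adjusted p = 0.0183). Without oxaliplatin sample 3 its adjusted p was 0.0529, and without vehicle sample 3 it was 0.0611, without the samples of high atrial markers 0.0927, and with voom 0.0572.

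Of the 9 genes of chromosome structure, 8 rose, by 0.77 to 3.93, and 6 passed with voom. Pimreg, Ncapg and Cdca2 stayed below 40.6 normalized counts in every vehicle sample. Top2a, the topoisomerase that untangles sister chromatids, had 208, 114, 557, 316 and 430.4 normalized counts in oxaliplatin hearts, against 34.7, 31.3, 34.4 and 41.3 in vehicle hearts. The lowest oxaliplatin heart was far above the highest vehicle heart, and the means were 325 ± 175 in oxaliplatin hearts and 35.4 ± 4.24 in vehicle hearts (2.97 ± 0.38, adjusted p = 9.67e-04). Mki67, the Ki-67 protein that coats mitotic chromosomes and is used as a marker of proliferation, had 87.2, 83.7, 305, 132 and 229.6 in oxaliplatin hearts, against 13.1, 7.82, 12.9 and 53.4 in vehicle hearts. Vehicle sample 4 stood well above the other vehicle hearts and still below every oxaliplatin heart (3.07 ± 0.54, adjusted p = 0.0045). Hmgb2, a chromatin protein that bends DNA, had 872, 464, 1000.5, 695 and 1095 in oxaliplatin hearts, against 364, 462, 495 and 364 in vehicle hearts, with oxaliplatin sample 2 inside the vehicle range (0.92 ± 0.22, adjusted p = 0.0173). Without vehicle sample 4 the adjusted p of Hmgb2 was 0.0575. Pimreg rose by 3.93 (adjusted p = 0.0949 with voom). Cdca2, which recruits protein phosphatase 1 to chromosomes, rose by 2.14 and overlapped between groups (adjusted p = 0.0129, or 0.0553 after quantile normalization and 0.114 with voom).

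The subunits of condensin, the ring that compacts mitotic chromosomes, were apart in size. Ncapg rose by 3.46, with 26.3 to 100.3 normalized counts in oxaliplatin hearts and 1.12 to 16.3 in vehicle hearts. The ATPase subunits Smc2 and Smc4, which are shared by both condensin complexes, rose by 1.26 and 0.77. Smc4 had 282, 312, 441, 398 and 498 in oxaliplatin hearts, against 202, 244, 184 and 265 in vehicle hearts, with a narrow gap between groups (0.77 ± 0.18, adjusted p = 0.0153). The adjusted p of Smc4 was 0.0584 without vehicle sample 3, and 0.108 without the 4 samples of high atrial markers. Ncapd2 did not pass, at 372, 424, 639, 485 and 529.9 in oxaliplatin hearts, against 394, 371, 364 and 447 in vehicle hearts (0.29 ± 0.16, adjusted p = 0.232). With samples weighted by their fit it rose by 0.45 (adjusted p = 0.0254).

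The 4 genes that did not pass were among the most abundant in vehicle hearts. Per kilobase of exon, the 8 members highest in vehicle hearts were Cenpa, Cks1b, Hmgb2, Ncapd2, Ckap5, Smc4, Cks2 and Cenpf. Their mean levels there were 31.9 to 152 normalized counts per kilobase. They held all 4 genes that did not pass, and their log2 fold changes were -0.31 to 2.54. The other 51 members, at 0.448 to 18.2 per kilobase in vehicle hearts, all passed, with log2 fold changes of 1.06 to 4.45. The vehicle level is part of each fold change, so this is a description and not a separate test. The 42 members below 40.6 normalized counts in every vehicle heart were in the table through their oxaliplatin values alone. All of them but Cks2 are among the 51, so the split was in part set by how the table was built.

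Ratios between genes of 1 structure were taken within each heart, for 3 pairs chosen after their values were seen and so given without a test. The log2 ratio of Ncapg to Ncapd2 was -3.08 ± 0.55 in oxaliplatin hearts and -6.24 ± 1.26 in vehicle hearts. That of Cenpe to Cenpa was -3.36 ± 1.29 in oxaliplatin hearts and -6.47 ± 0.74 in vehicle hearts. The log2 ratio of Ckap2 to Ckap5 was -1.34 ± 0.87 in oxaliplatin hearts and -5.83 ± 0.67 in vehicle hearts (SD, n = 5 and 4).

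**Figure D3:**
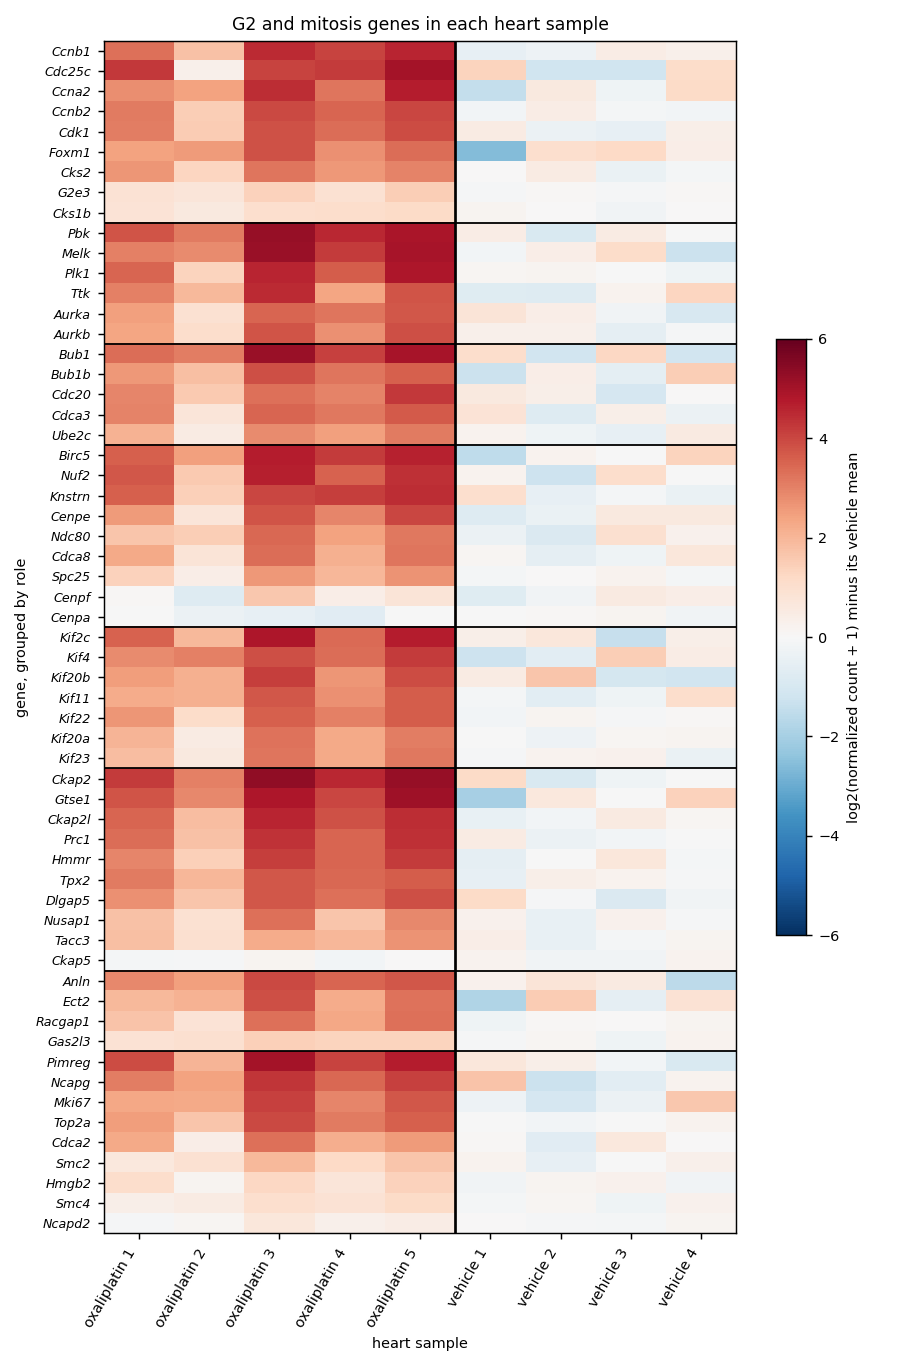
Log2(normalized count + 1) minus the gene's vehicle mean on that scale (colour, from -6 to 6), for the 59 G2 and mitosis genes by role, with 5 oxaliplatin hearts left of 4 vehicle hearts. Oxaliplatin samples 3 and 5 are darkest and sample 2 palest, and the rows of Cenpa, Cenpf, Ckap5 and Ncapd2 show little colour.

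The oxaliplatin hearts differed from each other along the whole set. The highest oxaliplatin value was that of sample 3 in 32 members and of sample 5 in 27, which together are all 59. The lowest was that of sample 2 in 50 members, of sample 1 in 7 and of sample 4 in 2. Oxaliplatin sample 3 was a median 4.81 times sample 2 over the members, against 0.995 times over all genes tested. Sample 5 was 4.5 times sample 2 over the members, against 1.0 over all genes. The median ratio of the highest to the lowest oxaliplatin heart was 5.14 over the members and 1.56 over all genes. Sample 2 was above the highest vehicle heart in 50 of the 59 members, and samples 1, 3, 4 and 5 were in 55, 57, 56 and 57. For 42 members, below 40.6 normalized counts in every vehicle heart, at least 1 oxaliplatin heart had to be above. The share over all genes was not computed for these counts. The erythroid score (mean log2 marker level, centred) was 1.7 in oxaliplatin sample 3 and -1.64, -2.47, -0.87 and -0.89 in samples 1, 2, 4 and 5, against 0.63 to 1.38 in vehicle hearts. Sample 3 thus stood apart from the other oxaliplatin hearts, and sample 2 had the lowest score. Without sample 3, 53 members rose at a median of 2.77, and without sample 2, 55 rose at a median of 3.31. Of all genes 936 of 13788 and 1508 of 13778 rose in these fits.

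The median over members of the log2 level relative to the vehicle mean was 2.62, 1.46, 3.79, 3.0 and 3.72 in oxaliplatin samples 1 to 5. In vehicle samples it lay between -0.08 and 0.11. Cdkn1a, the p53 target p21 that inhibits cyclin-dependent kinases, had 7913, 1789.6, 3564, 4823 and 6581 normalized counts in the same oxaliplatin hearts, against 299, 543, 576 and 854 in vehicle hearts. It rose together with the mitotic genes, by 3.04 ± 0.47 (adjusted p = 0.0048), and sample 2 was again the lowest oxaliplatin heart. The order of the others was not shared, since Cdkn1a was highest in sample 1. With 5 oxaliplatin hearts no correlation was computed.

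**Figure D4:**
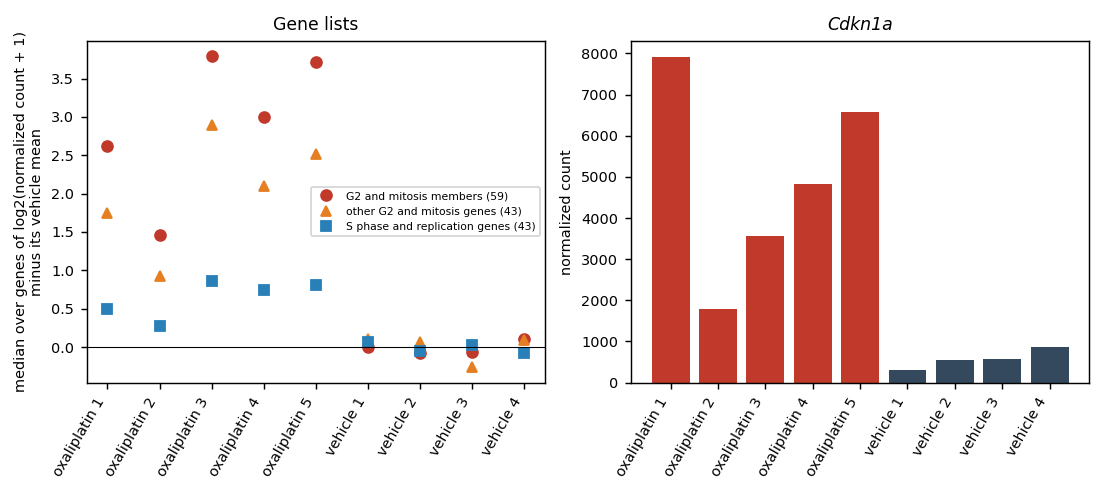
Left, median over genes of log2(normalized count + 1) minus the gene's vehicle mean in each heart, for the G2 and mitosis genes, a further list of such genes and the S phase genes; right, normalized counts of Cdkn1a (bars), oxaliplatin hearts left of vehicle hearts. The G2 and mitosis genes lie at 1.46 to 3.79 in oxaliplatin hearts and -0.08 to 0.11 in vehicle hearts.

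A further list of 50 G2 and mitosis genes that are no members had 43 tested, of which 26 rose and 0 fell, at a median of 2.06. With voom 14 of them rose and 0 fell. Of all genes 9.23% rose by limma and 7.33% by voom. Only 13 of the 43 reached 40.6 normalized counts in a vehicle heart, and 4 of these 13 rose, against 8.2% of all such genes. The others of the 26 were in the table through their oxaliplatin values alone. Psrc1, a spindle protein, averaged 109 ± 34.4 in oxaliplatin hearts and 10.4 ± 6.32 in vehicle hearts (3.40 ± 0.42, adjusted p = 8.39e-04). Iqgap3 rose by 2.82, and Ncaph, the kleisin of condensin I, by 2.20.

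Of 43 S phase and replication genes tested, 18 rose and 0 fell at a median of 0.59, with 15 and 0 by voom. The shares of all genes that rose were 9.23% by limma and 7.33% by voom. The difference between this list and the members was not tested. Of the 33 that reached 40.6 in a vehicle heart, 14 rose, against 8.2% of all such genes. Only 17 of the 59 members reached that level in a vehicle heart, so the medians of the lists are not like for like. Mcm3, a subunit of the replicative helicase, averaged 437 ± 100.5 in oxaliplatin hearts and 172 ± 21.8 in vehicle hearts (1.32 ± 0.18, adjusted p = 0.00104). Tyms, thymidylate synthase, rose by 1.10 and Mcm6 by 0.99. In single hearts the S phase median was 0.28 to 0.86 in oxaliplatin samples and -0.08 to 0.07 in vehicle samples, and it too was lowest in oxaliplatin sample 2 and highest in sample 3.

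Of 18 E2F, DREAM and MuvB regulators 3 rose and 0 fell, by limma and by voom alike, at a median of 0.16, while 9.23% of all genes rose by limma. Of the 14 that reached 40.6 normalized counts in a vehicle heart, 1 rose (Rbbp4), and E2f7 and E2f1 were in the table through their oxaliplatin values alone. E2f7, a repressor of S phase genes, averaged 109 ± 39.1 in oxaliplatin hearts and 25.4 ± 10.4 in vehicle hearts (2.07 ± 0.35, adjusted p = 0.00252). E2f1, an activator, rose by 1.48 (adjusted p = 0.00967). Rbbp4, a histone-binding subunit of MuvB and of several chromatin complexes, rose by 0.35 (adjusted p = 0.0424). Its adjusted p was between 0.0483 and 0.0947 when 1 sample was left out, and passed in 1 of those 9 fits.

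Among 10 G1 cyclins and kinases 2 rose and 1 fell, at a median of 0.14, and with voom 2 rose and 0 fell. By limma 9.23% of all genes rose and 5.03% fell. Cdk6, a G1 kinase, averaged 1277 ± 208 in oxaliplatin hearts and 659 ± 91 in vehicle hearts (0.95 ± 0.14, adjusted p = 0.00131). Ccnd1, cyclin D1, had 1116 to 2611 in oxaliplatin hearts and 805 to 1171 in vehicle hearts, and rose by 1.02 (adjusted p = 0.0135). Ccnh, the cyclin of the CDK-activating kinase, fell by 0.46 (adjusted p = 0.047), and passed in 3 of the 9 fits without 1 sample, with adjusted p-values up to 0.128.

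Of 12 CDK and G2 inhibitors, 1 rose and 2 fell, at a median of -0.10, and with voom 1 rose and 1 fell. By limma 9.23% of all genes rose and 5.03% fell. The gene that rose was Cdkn1a. Gadd45a, a stress gene that can arrest cells in G2, averaged 101 ± 20.6 in oxaliplatin hearts and 226 ± 24.3 in vehicle hearts, and fell by 1.17 on the log2 scale (SE 0.18, adjusted p = 0.00159). Cdkn1c, which encodes p57, fell by 0.86 (adjusted p = 0.045), and passed in 2 of the 9 fits without 1 sample, with adjusted p-values up to 0.152.

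Of 12 cohesin and constitutive SMC genes, which hold sister chromatids together and shape chromatin in all cells, 0 rose and 0 fell by limma or by voom. The count was also 0 at an unadjusted p under 0.05. The list's median log2 fold change was 0.0. Smc3 averaged 621 ± 41.8 in oxaliplatin hearts and 689 ± 37.3 in vehicle hearts (-0.15 ± 0.10, adjusted p = 0.355). Smc1a averaged 1177 ± 104 in oxaliplatin hearts and 1061 ± 62.3 in vehicle hearts (0.15 ± 0.10, adjusted p = 0.376).

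**Figure D5:**
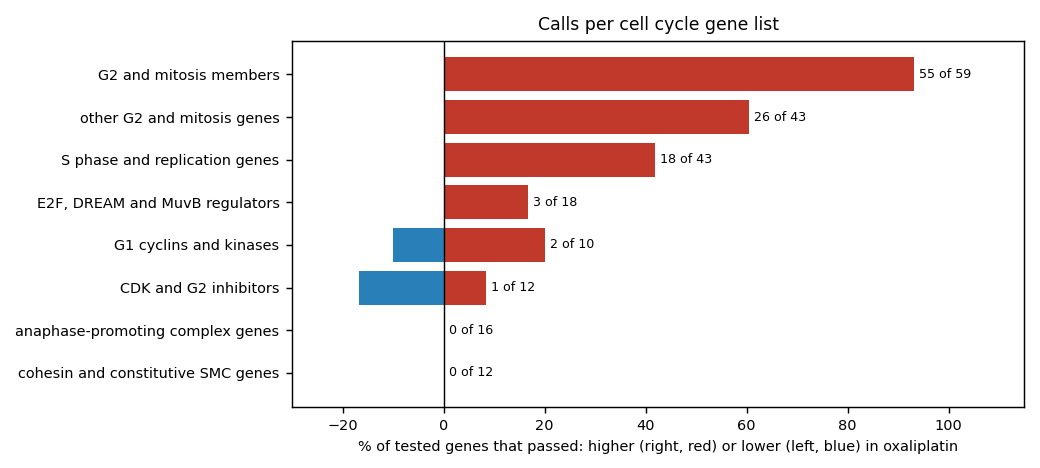
Percent of tested genes that passed as higher (red, right) or lower (blue, left) in oxaliplatin against vehicle hearts, for the G2 and mitosis genes and 7 further lists, with the count of higher genes beside each bar. The members stand at 55 of 59 higher, the S phase genes at 18 of 43, and the cohesin and anaphase-promoting complex genes (with Fzr1 and Ube2s) at 0.

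Markers of several cell types moved in the same comparison, and their part in the result was not tested. Over all genes 9.23% rose and 5.03% fell by limma. Of 12 endothelial markers 4 rose and 1 fell, with summed levels of 45140 to 87700 normalized counts in oxaliplatin hearts and 35860 to 43410 in vehicle hearts. Of 12 smooth muscle and pericyte markers 3 rose and 0 fell, at 24620 to 39340 in oxaliplatin hearts and 16290 to 23950 in vehicle hearts. Of 11 epicardial markers tested 5 rose and 0 fell, at 3036 to 5667 in oxaliplatin hearts and 347 to 1152 in vehicle hearts. Fibroblast markers summed to 78000 to 179900 in oxaliplatin hearts and 76260 to 111100 in vehicle hearts, and 2 of 12 rose.

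Markers of blood cells were measured in the same way. Of 12 macrophage markers 2 rose and 1 fell, at 6489 to 16820 in oxaliplatin hearts and 7886 to 10020 in vehicle hearts. None of the 5 neutrophil and precursor markers tested passed, at 248 to 494 in oxaliplatin hearts and 281 to 986 in vehicle hearts. Of 6 B and plasma cell markers tested 4 fell and 0 rose, at 141 to 365 in oxaliplatin hearts and 401 to 886 in vehicle hearts. The 2 tested markers of T and NK cells summed to 63.3 to 144 in oxaliplatin hearts and 46.9 to 86.1 in vehicle hearts, and neither passed. Of 10 erythroid markers none passed by limma, at 15750 to 365300 in oxaliplatin hearts and 231000 to 578600 in vehicle hearts, while 6 had an unadjusted p under 0.05 and 1 fell by voom. Of 12 cardiomyocyte markers 2 fell and 0 rose, and of 10 atrial markers 1 rose and 0 fell. No tested marker was at 0 in every sample.

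The members' count was recomputed without the samples of high atrial markers. Without oxaliplatin samples 2, 3 and 4 and vehicle sample 1, 53 of the 59 members rose, with a median of 3.10. In that fit 1060 of all 13724 genes rose. It held only oxaliplatin samples 1 and 5 and vehicle samples 2, 3 and 4. Oxaliplatin sample 3 was left out at an atrial score of 1.02, just above the margin of 1. With the atrial score as a covariate 55 members rose, and with the erythroid score 54 rose, at a median of 3.77. Of all 13788 genes 1611 and 793 rose in these fits. When any 1 sample was left out, 52 to 55 members rose, and 789 to 1508 of all genes.

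Exons of 19 members overlap those of another annotated gene (GENCODE M21), most of them on the opposite strand, and no source used here says whether reads were counted by strand. Reads in the shared bases may belong to either gene, and the length shared was not measured. Among these members are Top2a, Plk1, Foxm1, Prc1 (Rccd1), Kif20a (Cdc23), Kif22, Ncapg (Lcorl), Ccna2 (Exosc9), Cdc20 (Elovl1), Ckap5, Ncapd2 and Ube2c, whose partner Tnnc2 encodes a muscle troponin.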

How the data were processed

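RNA of the 9 heart samples was extracted with the Maxwell RSC system and made into libraries with the Clontech SMARTer kit, per the labels' protocols. Each value in the deposited table is a signal for 1 gene in 1 sample, a normalized count per the file headers. The submitters' processing notes name STAR 2.5.1a, Partek and DESeq2 without a role. No source used here gives the genome build, the annotation or the strandedness of the counting. Reads estimated from the steps between low values were not whole often enough to be used as counts, and served only for voom.

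From these values, log2(normalized count + 1) was fitted with limma 3.58.1 (trend and robust moderation, R 4.3.3) for 5 oxaliplatin against 4 vehicle samples, over 13788 genes with a mean of at least 10, with Benjamini-Hochberg adjustment and a threshold of 0.05. The steps were tested on simulated data. The 1 added to each value makes the log2 fold changes of low genes smaller. Genes in the table through their oxaliplatin values alone were selected for a rise, which makes theirs larger. Which of these weighs more was not tested.

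The members and lists were chosen with earlier results of these data known. Genes given sample by sample were Top2a, Mki67, Cdk1, Ccnb1, Plk1 and Foxm1, the 2 most abundant members of each role, the 5 members of largest and the 5 of smallest change, and every member that did not pass. Up to 3 genes of smallest p were named from each other list, plus Cdkn1a. Further members are named by role with their fold change. Other scalings, filters, weights, covariates and sample sets were tried as alternatives. Intervals and p-values cover the spread between samples.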

Additional observations from a re-analysis of the deposited data

Results flagged for a closer look

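In 3 genes 1 vehicle heart stood apart from the other 3 by a gap test on groups of 4 to 10 samples, out of 92 groups of values of 46 named genes, where chance sets apart about 1 group in 20. Mki67 was 53.4 normalized counts in vehicle sample 4, against 7.82 to 13.1 in the other vehicle hearts. Without that sample its log2 fold change was 3.62 (limma, adjusted p = 0.00268). Mcm6 was 219.9 in vehicle sample 1, against 171 to 174 in the others, and its log2 fold change without that sample was 1.08 (adjusted p = 0.00298). Ccnd1 was 1171 in vehicle sample 4, against 805 to 844 in the others, and its log2 fold change without it was 1.14 (adjusted p = 0.0186).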

How the results depend on the processing

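The number of members that rose moved most with the model. It was 25 of 59 with voom, 45 at an adjusted p under 0.01, 41 of the 45 with a mean of at least 50, and 51 to 56 under every other alternative run, while the median log2 fold change was 2.49 to 3.77. The highest median, 3.77, came with the erythroid score as a covariate. Counts over all genes moved more, and the cause was not tested. Scaling to equal totals gave 269 lower, and shifted the median of all genes to 0.11. Sample weights gave 3541 that passed, with 1975 higher and 1566 lower, and 1 member lower (Cenpa). The erythroid covariate gave 1041, with 793 higher and 248 lower. An adjusted p under 0.01 gave 757, with 562 higher and 195 lower. Leaving out 1 sample gave 1110 to 2388 genes, 789 to 1508 higher and 321 to 880 lower. The total was 1110 without vehicle sample 3, 1237 without vehicle sample 2 and 1301 without oxaliplatin sample 4. The same fits gave 52 to 55 members and a median of 2.77 to 3.31. Ckap5, which did not pass under any of them, changed sign to 0.10 with equal totals, 0.06 with sample weights, 0.09 with the erythroid covariate, 0.02 without the samples of high atrial markers, 0.09 without vehicle sample 1 and oxaliplatin samples 2 and 4 (chosen after seeing the data), 0.04 without vehicle sample 1 and 0.03 without vehicle sample 4 (range without 1 sample -0.11 to 0.04).

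Deviations of samples with the same number had correlations of -0.27, -0.06, -0.09 and 0.25. The labels name no pairing, and so few correlations cannot decide whether the numbers stand for pairs. With the replicate number as a block, 1413 genes passed, and 53 members rose at a median of 2.82. Aurka then had an adjusted p of 0.057, Cdc25c 0.0567 and Cdkn1a 0.0713.

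With 5 and 4 samples and vehicle means under 10 normalized counts for 18 members, fold changes of those members depend on few reads.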
